A study of Mus musculus with 480 samples.

Results

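Club cells of the mouse lung that were rich in Scgb3a1 were set against club cells that held almost none of it. The cells came from the line Scgb1a1-TD (genotype Scgba1a1-CreER;R26-tdtomato in the labels), in which a CreER recombinase driven by Scgb1a1 switches on the red protein tdTomato. The CreER acts after an inducing drug, whose dose and time the sources used here do not give, nor do they give the age, sex and number of animals. All cells of both groups shared this genotype. Single tdTomato-positive cells were sorted into wells from digested lungs, and full-length cDNA of each cell was sequenced. Of 480 cells in the series, 160 came from Scgb1a1-TD, and 97 of these were annotated as club cells in the labels. Reads per gene were turned into CPM, the usual scaling of a count to a fixed total of gene-assigned reads per cell (1e6). Of the 94 club cells with at least 100000 reads, 17 had 100 CPM or more of Scgb3a1 and are called high, and 52 had under 10 CPM and are called low. The 25 cells between these limits entered neither group. Both groups were therefore chosen by a measured value, and every difference between them is a description. No animal is named, so cells were not treated as replicates and no test was run. Intervals are at 95% and cover counting error only, because PCR reads without molecular identifiers are not independent molecules.

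Club cells are the secretory cells of the airway lining. In mice they fill the small bronchioles and are also common in the large airways, where they lie beside goblet, ciliated and basal cells. Secretoglobins are small proteins that club cells release into the airway fluid. Scgb1a1 is made along the whole airway, Scgb3a2 mainly in the bronchioles, and Scgb3a1 mainly in the large airways of the mouse. Secretory cells of the large airways also make the mucin Muc5b, lipid-binding proteins of the BPI fold family and antimicrobial lectins.

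High cells were rich in Muc5b and Lypd2 on every plate, and a subset of them carried further secreted proteins, such as Reg3g and Bpifb1, at very high level. Reg3g, a lectin that binds bacteria, stood at 11604 CPM in the pooled reads of high cells and at 0.873 CPM in those of low cells. General club cell genes such as Scgb1a1 and Cyp2f2 were about as abundant in high as in low cells. Cbr2, another club cell marker, was lower in high cells, but by less than 2-fold. Ager, a receptor gene abundant in alveolar type 1 (AT1) cells, was nearly absent from high cells and frequent in low cells. No high cell of plate 2 had 100 CPM of Reg3g or Bpifb1, against 6 of 7 and 7 of 7 on plate 3 and 3 of 4 for each gene on plate 4.

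Promoters are shown for Scgb3a1, which defined the groups, and for Reg3g and Bpifa1, which had the largest ratios among the named genes. The windows of 300 bases cover mainly the stretch before the annotated start and end just after it, in RefSeq's mouse sequence (GRCm38.p6), and are written 5′ to 3′ on the strand of the gene. They lie at chr11:49663345-49663644 (plus strand) for Scgb3a1, chr6:78468825-78469124 (minus strand) for Reg3g and chr2:154142630-154142929 (plus strand) for Bpifa1. Capitals mark any match on either strand to 4 short motifs, which are TGTTTAC of forkhead factors, CTCAAG of Nkx2-1, TTGCNNAA of C/EBP factors and GGGANTTTC of NF-kB.
Scgb3a1: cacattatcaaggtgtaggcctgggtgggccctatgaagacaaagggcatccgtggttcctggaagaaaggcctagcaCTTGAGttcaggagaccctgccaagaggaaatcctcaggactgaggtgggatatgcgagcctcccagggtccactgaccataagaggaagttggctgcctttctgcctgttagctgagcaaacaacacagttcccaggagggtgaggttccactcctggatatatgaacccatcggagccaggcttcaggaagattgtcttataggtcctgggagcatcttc
Reg3g: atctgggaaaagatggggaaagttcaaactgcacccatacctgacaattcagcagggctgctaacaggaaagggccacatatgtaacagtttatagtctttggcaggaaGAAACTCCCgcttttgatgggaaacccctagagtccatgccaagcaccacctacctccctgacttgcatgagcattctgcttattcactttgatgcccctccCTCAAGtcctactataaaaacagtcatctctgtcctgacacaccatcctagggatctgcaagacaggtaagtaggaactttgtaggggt
Bpifa1: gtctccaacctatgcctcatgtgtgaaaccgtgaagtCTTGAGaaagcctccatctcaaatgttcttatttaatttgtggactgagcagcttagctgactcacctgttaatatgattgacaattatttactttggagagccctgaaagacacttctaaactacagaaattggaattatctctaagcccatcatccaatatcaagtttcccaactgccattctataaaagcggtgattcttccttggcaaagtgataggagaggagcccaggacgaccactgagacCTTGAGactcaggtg
All 3 windows held the Nkx2-1 letters, which 15.9% of 32851 promoter windows of the mouse also held, and the Reg3g window held the NF-kB letters, found in 1.11% of windows. The C/EBP letters (10.8% of windows) and the forkhead letters (3.65%) were in none of the 3. Windows were present for 10 of the 12 genes with the largest positive ratios named later, and the Nkx2-1 letters were in 2 of these 10. Of the 12 genes with the largest negative ratios, 9 had a window and 3 of these 9 held the Nkx2-1 letters. A match of letters is a description of the window and shows no binding.

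Scgb3a1 (ENSMUSG00000064057, chromosome 11, 49663610 to 49665118, plus strand, GRCm38) spread over a wide range within the high cells that it defined. The 7 high cells of plate 3 held 52258, 46122, 34623, 26349, 14957, 10050 and 3401 CPM. The 4 high cells of plate 4 held 48021, 43582, 3464 and 1064 CPM. The 6 high cells of plate 2 held 7219, 1422, 536, 315.1, 268.3 and 246.7 CPM. Plate 2 thus gave the lower end of the high group, and its top cell lay below 6 of the 7 high cells of plate 3. The cells nearest to the upper limit had 246.7 CPM inside it and 94.6 CPM outside it. At the lower limit the nearest cells had 8.37 CPM among low cells and 10.4 CPM between the limits. High cells made up 18.1% of the 94 club cells (exact Clopper-Pearson interval 10.9% to 27.4%), and low cells made up 55.3% (44.7% to 65.6%). The lower limit lies in a range where levels moved with plate row, so the share of low cells and the membership of that group moved with it too, as described next. By plate, the share of high cells was 28.6% of 21 cells on plate 2, 12.1% of 58 on plate 3 and 26.7% of 15 on plate 4.

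High cells held 18400017 reads in all, with a median of 1074760 per cell, and low cells held 53852913, with a median of 1114170. On plate 2 the medians were 1008980 reads in high cells and 487535 reads in low cells. When each cell was thinned to 100000 reads, a median of 4434 genes had a read in high cells and 3693.5 in low cells. The median share of mitochondrial reads was 3.16% in high cells and 3.01% in low cells. The club label fitted the marker Scgb1a1, which took 250321 CPM in high cells and 265100 CPM in low cells. The basal cell keratin Krt5 had 0 reads in both, but other genes of a list of 10 basal cell genes were present. That list summed to a median of 148.4 CPM in high cells and 288.3 CPM in low cells. Its highest sum was 552.9 CPM in high cells and 1536 CPM in low cells.

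Levels of Scgb3a1 between 10 and 100 CPM followed the position of a cell on its plate. On plate 3, 4 rows held a cell with 10000 CPM or more. In these rows the other cells under 100 CPM had a median of 14.99 CPM, and 28 of 40 had 10 CPM or more. The 30 cells of plate 3 that shared neither a row nor a column with such a cell had a median of 0 CPM and a highest value of 9.70 CPM. The pattern held for every annotated type on plate 3. In rows with a cell at 10000 CPM or more the median was 16.3 CPM over 26 club cells, 11.1 CPM over 7 BASCs (bronchioalveolar stem cells) and 25.1 CPM over 7 ciliated cells. It was 0, 0 and 0 CPM in the other rows for these types. Of the plate 3 club cells under 100 CPM, 19 of 26 in rows with such a cell had 10 CPM or more and so were not counted as low, against 3 of 25 in other rows.

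On plate 4 the same was seen in alveolar type 2 (AT2) cells of another mouse line, Sftpc-TD (genotype Sftpc-DreER;R26-RSR-tdtomato). In the 2 rows with a cell at 10000 CPM or more, 14 AT2 cells ranged from 8.72 to 42.3 CPM, while 46 AT2 cells of the other rows ranged from 0 to 3.63 CPM. Row by row, the median of the other cells was 0.0323% of the summed CPM of the cells at 100 CPM or more in row A of plate 3, 0.0382% in row D, 0.0414% in row G and 0.0371% in row H. It was 0.0250% in row B and 0.0271% in row E of plate 4. Of the 25 club cells between the limits, 19 shared a row with a cell at 10000 CPM or more, and 5 more shared a column. The column numbers of the strong plate 3 cells also marked wells of plate 2, where 9 of 23 BASCs of BASCs-Tracer in those columns had 10 CPM or more, against 0 of 25 in other columns. The cause of this pattern was not tested. Whether the 25 cells differ from low cells was not tested. The 6 high cells of plate 2 lay in columns 9, 10 and 12. All Scgb1a1-TD cells of plate 2 lay in columns 9 to 12, where plate 3 held no cell at 10000 CPM or more. By this layout none of them could share a column number with such a cell, so their columns carry no information on the pattern.

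**Figure D1:**
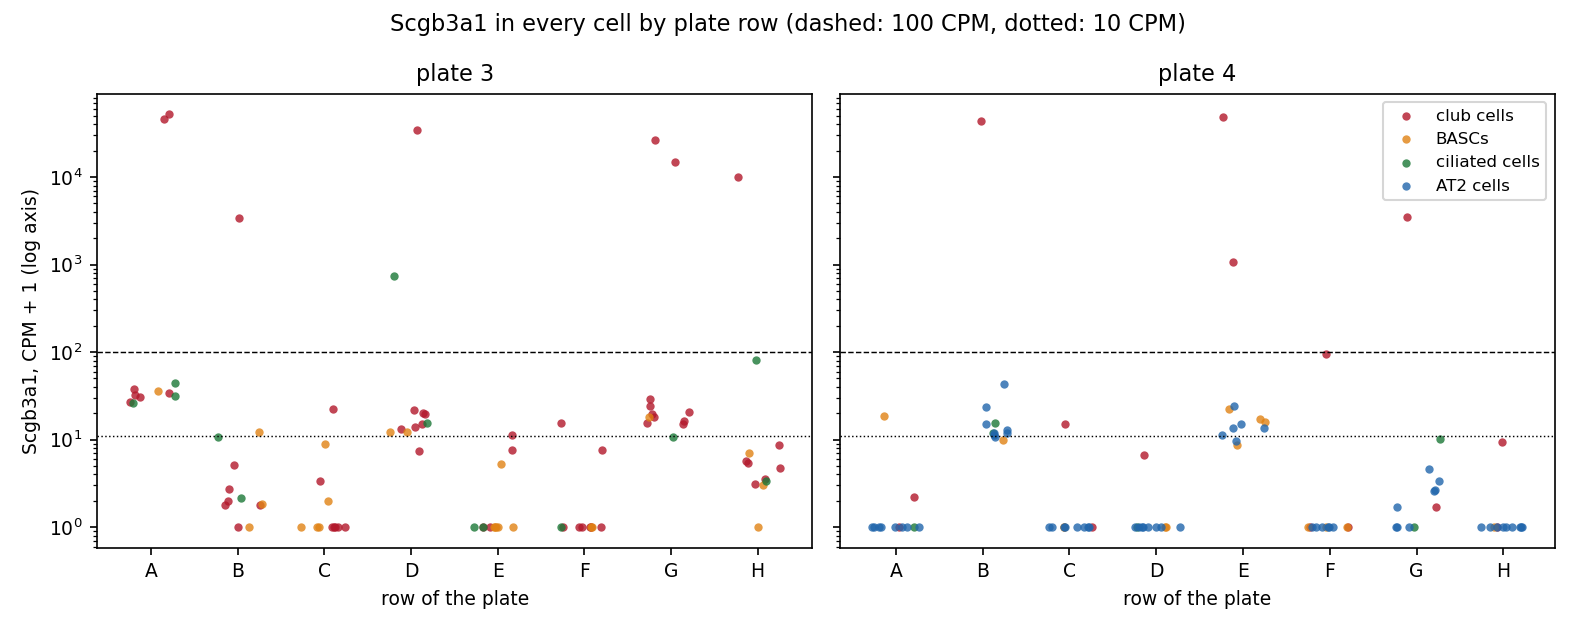
Scgb3a1 in each cell of plates 3 and 4 by plate row, as CPM + 1 on a log axis, coloured by annotated cell type, with dashed and dotted lines at 100 and 10 CPM. Cells of every type lay near or above 10 CPM in rows A, D and G of plate 3 and rows B and E of plate 4, which each held a club cell at 10000 CPM or more, and mostly at 0 in rows without high cells. Row H of plate 3 also held such a cell, and its 11 other cells had a median of 3.73 CPM, with 1 at 10 CPM or more.

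Reg3g stood in a similar proportion to Scgb3a1 in cells with much and with little of it on plate 3, and Bpifb1 did so outside the low cells. Reg3g stood at 0.702 of the Scgb3a1 level in high cells, 0.597 in cells between the limits, 0.615 in low cells and 0.608 in BASCs. Bpifb1 stood at 0.480 of Scgb3a1 in high cells, 0.496 in cells between the limits and 0.36 in BASCs. Muc5b did not keep such a ratio, with 0.142 of Scgb3a1 in high cells and 6.91 in cells between the limits. The low cells of plate 3 held Bpifb1 at 24.2 times Scgb3a1, and 1 low cell with 1430 CPM carried most of it.

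Between the pooled reads of high and low cells, 10617 genes were measured, meaning that they had 5 CPM or more in either group. Of these, 1845 (17.4%) were 2-fold or more higher and 2086 (19.6%) were 2-fold or more lower in high cells, with 1 CPM added before the ratio. Ratios between small sets of single cells are wide, and the middle 90% of genes spanned log2 ratios from -2.68 to 2.61 around a median of -0.07. A stricter count took genes that stayed 2-fold apart when any 1 cell was left out and kept their direction on plates 2, 3 and 4. It held 2.76% of the genes as higher and 8.85%, or 940 genes, as lower in high cells. Leaving out 1 cell weighs more among 17 high cells than among 52 low cells, so these 2 shares cannot be compared with each other.

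A list of 15 genes of large-airway secretory cells was chosen with results of these data already known, so its direction is not independent evidence. Of its 13 measured members, 11 were 2-fold or more higher in high cells, 0 were lower and the median log2 ratio was 6.27, against 17.4% of all genes and a median of -0.07. By the stricter count 6 of 13 remained higher, against 2.76% of all genes, and these were Bpifa1, Ltf, Lypd2, Muc5b, Reg3g and Tff2. The median of the 13 members was 6.99 on plate 3 and 5.52 on plate 4, but 0.46 on plate 2. The 2 measured members within 2-fold were Gabrp, a subunit of a GABA-gated chloride channel, with 899 CPM in high cells and 624 CPM in low cells, and Bpifb5, with 10.98 CPM in high cells and 11.6 CPM in low cells.

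Muc5b (chromosome 7, 141839070 to 141873084, plus strand) encodes a gel-forming mucin of airway mucus. It ranged from 22.8 to 7983 CPM with a median of 2415 over the 17 high cells, and from 0 to 681 CPM with a median of 1.13 over the 52 low cells. All 17 high cells lay above the median of low cells and 13 lay above every low cell, so the groups overlapped in 4 high cells. The pooled level was 2770 CPM (2746 to 2795) in high cells and 34.5 CPM (32.99 to 36.1) in low cells, a log2 ratio of 6.29. It was 4.45 on plate 2, 6.85 on plate 3 and 7.02 on plate 4. At 100 CPM or more, Muc5b was found in 15 of 17 high cells, 5 of 25 between the limits and 6 of 52 low cells.

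Lypd2, a small membrane-anchored protein of the Ly6 family, was present in every high cell. It ranged from 203.4 to 1564 CPM with a median of 641 in high cells, and from 0 to 560 CPM with a median of 99.7 in low cells. The 17 high cells all lay above the median of low cells, and 9 of them lay above every low cell. The log2 ratio was 2.46 in all and 1.25, 2.87 and 2.62 on plates 2, 3 and 4. Muc4, a membrane-bound mucin, showed a smaller log2 ratio of 1.72, with a median over cells of 276.7 CPM in high cells and 58.9 CPM in low cells. The other abundant membrane mucin, Muc1, stood at 1322 CPM in high cells and 1508 CPM in low cells.

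**Figure D2:**
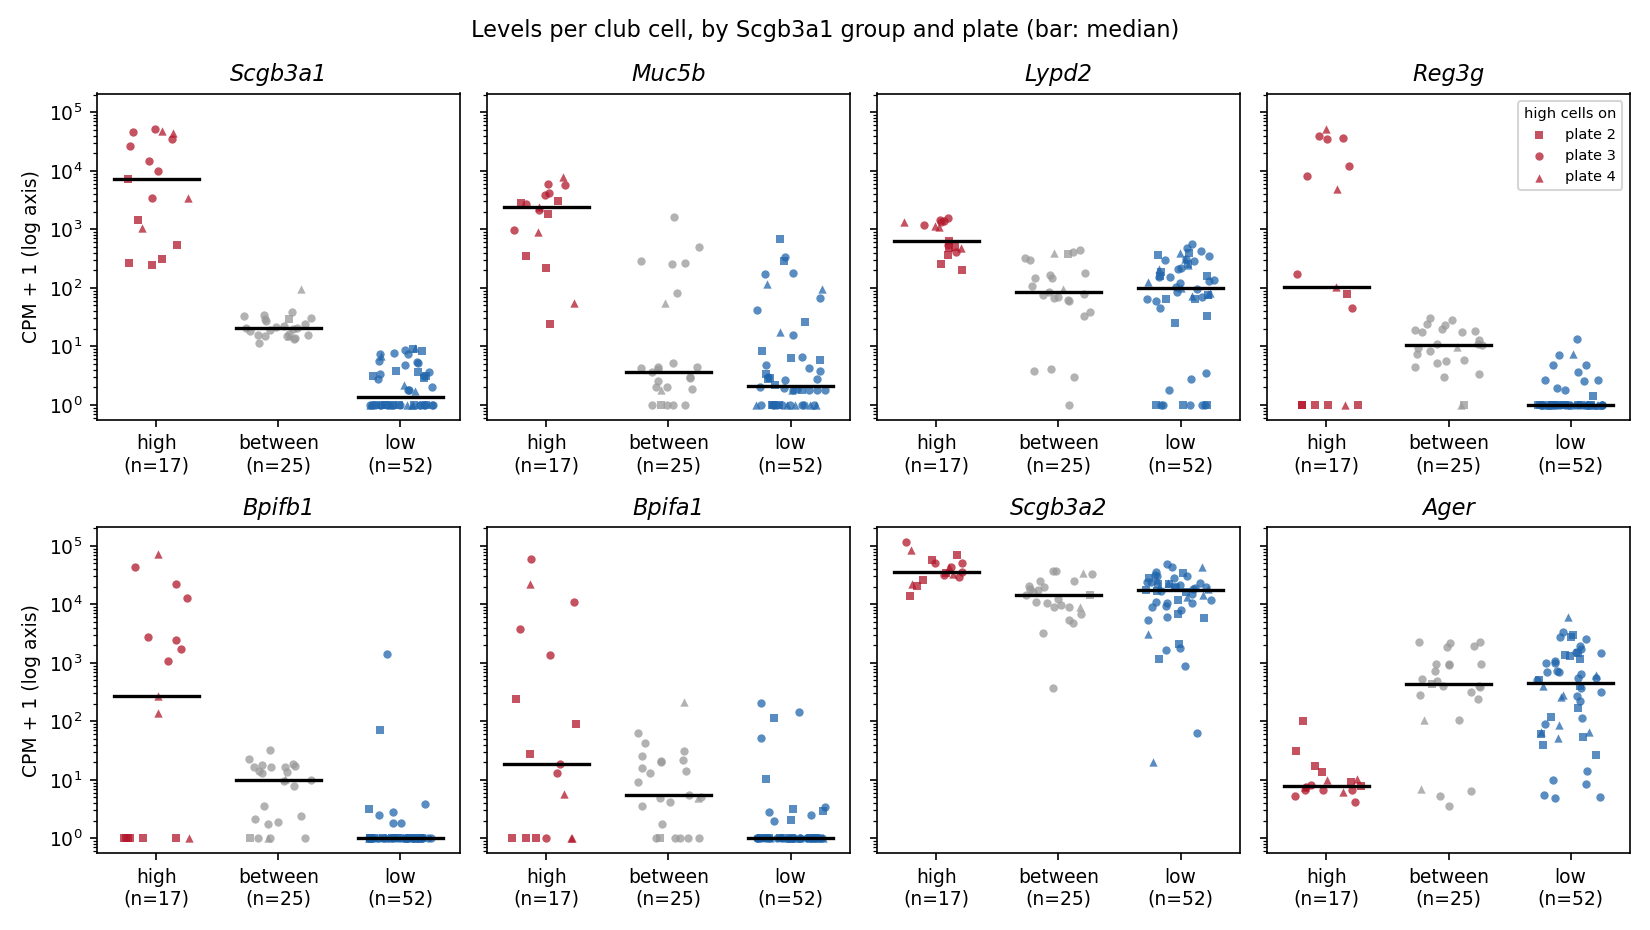
CPM + 1 on a log axis for 8 genes in each club cell, by Scgb3a1 group, with marker shapes for plates 2, 3 and 4 and a bar at the median of 17 high, 25 between and 52 low cells. Muc5b and Lypd2 were high in nearly all high cells, Reg3g and Bpifb1 in a part of them on plates 3 and 4, Bpifa1 in 4 of 7 on plate 3 and in 1 cell each of plates 2 and 4 (at 100 CPM or more), and Ager was at 3.15 to 100.5 CPM in high cells against 3.97 to 6153 CPM in low cells.

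Reg3g (chromosome 6, 78466269 to 78468872, minus strand) was at 0 to 51838 CPM with a median of 104.3 in high cells, and at 0 to 12.2 CPM with a median of 0 in low cells. The 11 high cells that held any read of it all lay above every low cell, and 6 high cells held none. On plate 3 the 7 high cells ranged from 44.5 to 39522 CPM, and on plate 4 the 4 high cells ranged from 0 to 51838 CPM. The 6 high cells of plate 2 ranged from 0 to 76.1 CPM, and none reached 100 CPM. The log2 ratio of 12.60 over all plates was 12.99 on plate 3 and 13.23 on plate 4, and 2.42 on plate 2.

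Bpifb1 and Bpifa1 encode secreted proteins of the BPI fold family and lie close together on chromosome 2. Bpifb1 ranged from 0 to 72869 CPM with a median of 269.1 in high cells, and from 0 to 1430 CPM with a median of 0 in low cells. It was at 1054 CPM or more in all 7 high cells of plate 3 and at 0 in all 6 high cells of plate 2. Its log2 ratio was 8.37 in all, 8.0 on plate 3 and 14.25 on plate 4, and it was reversed on plate 2 at -2.21, where 1 low cell had 70.9 CPM. When 1 cell was left out, the ratio over all plates ran from 7.58 to 12.45, since 1 low cell of plate 3 held 1430 CPM. Bpifa1 ranged from 0 to 59898 CPM with a median of 17.4 in high cells, and from 0 to 206.1 CPM with a median of 0 in low cells. Of the high cells, 6 had 100 CPM or more of Bpifa1, and its log2 ratio was 9.27, from 7.95 to 9.90 when 1 cell was left out.

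Ltf, which encodes the iron-binding protein lactoferrin, ranged from 0 to 9354 CPM with a median of 152.9 in high cells, and from 0 to 286.2 CPM with a median of 0 in low cells. It reached 100 CPM in 11 of 17 high cells and 4 of 52 low cells. The log2 ratio was 5.56, and as low as 3.85 when 1 cell was left out. Tff2, a trefoil peptide secreted with mucus, reached 917 CPM in high cells, where 11 of 17 had a read, and 29.1 CPM in low cells, where 1 of 52 had one.

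These genes were not spread evenly over the high cells. Of Muc5b, Bpifa1, Bpifb1, Reg3g and Ltf, all 5 were at 100 CPM or more in 5 high cells, 4 of them in 3 cells, 3 in 2 cells, 2 in 2 cells, 1 in 4 cells and 0 in 1 cell. No cell between the limits and no low cell had more than 2 of them, and 41 of 52 low cells had 0. By plate, 3 or more of the 5 were present in 7 of 7 high cells of plate 3, 2 of 4 of plate 4 and 1 of 6 of plate 2. Reg3g and Bpifb1 were at 100 CPM or more together in 9 high cells and in 0 of the other 77 club cells.

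Within the 17 high cells, the order of Scgb3a1 was shared most closely by Reg3g and Bpifb1 among the proximal genes examined, with a Spearman rho of 0.83 each. It was 0.79 for Lypd2, 0.77 for St8sia6, 0.74 for Itln1, 0.67 for Muc5b and 0.35 for Bpifa1. Scgb1a1 had a rho of -0.34 and Cyp2f2 of -0.46, and CPM values of 1 cell share a total. These cells came from 3 plates that differed in level, and the values are descriptions. Over all 94 club cells, 2264 genes were ranked, with 50 CPM or more over these cells and a read in 30% or more of them. The 10 ranked most like Scgb3a1 were Reg3g (rho 0.71), Muc5b (0.57), Bpifb1 (0.57), Bpifa1 (0.54), Ptpru (0.52), Ltf (0.50), Lypd2 (0.46), Aqp4 (0.43), Sult1d1 (0.43) and Cd14 (0.42). Some genes outside this filter had values in the same range, such as Tff2 (0.55), St8sia6 (0.50), Tacr1 (0.44), Oit1 (0.44) and Itln1 (0.43). The order of the ranked genes differed between plates. On plate 2 rho was 0.15 for Reg3g, -0.38 for Bpifb1, 0.02 for Bpifa1 and 0.04 for Ltf, while it was 0.60 for Muc5b, 0.56 for Lypd2, 0.53 for Ptpru, 0.47 for Aqp4, 0.37 for Cd14 and 0.24 for Sult1d1. On plate 3 rho ran from 0.29 for Cd14 to 0.93 for Reg3g, and on plate 4 from 0.55 for Sult1d1 to 0.88 for Lypd2.

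The order also rested in part on values under 100 CPM, which moved with plate row for Scgb3a1 and for Reg3g. With all such values set to 100 CPM, rho became 0.75 for Reg3g, 0.74 for Bpifb1, 0.73 for Muc5b, 0.64 for Lypd2, 0.58 for Sult1d1 and 0.56 for Ltf, and these 6 stayed among the first 10 genes. It became 0.46 for Aqp4, 0.43 for Bpifa1, 0.42 for Ptpru and 0.38 for Cd14, which then ranked 15, 18, 21 and 27. Scgb3a2, at rank 22 in the first order, then ranked 10 with a rho of 0.52, and Muc4, at rank 24, ranked 14 with 0.47.

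Further genes named by the size of their ratio were at low levels in low cells. Itln1, a lectin that binds microbial sugars, ranged from 0 to 1517 CPM in high cells, with a read in 8 of 17, and had reads in 1 of 52 low cells, at 40.03 CPM. Agr2, a protein disulfide isomerase needed for mucin folding, was at 167.7 CPM in high cells and 2.97 CPM in low cells, a log2 ratio of 5.41. Adh7, an alcohol and retinol dehydrogenase, was at 190 CPM in high cells and 3.49 CPM in low cells, also 5.41. St8sia6, a sialyltransferase, stood at 154.3 CPM in high cells and 1.78 CPM in low cells, and 11 of 17 high cells had a read against 2 of 52 low cells. Tacr1, the receptor of substance P, was at 76.96 CPM in high cells, with reads in 8 of 17, and at 0.0186 CPM in low cells. Oit1 had a log2 ratio of 5.81 and Neurl1b, a ubiquitin ligase of the neuralized family, of 5.65. None of these 7 genes was found in all high cells. For each of them, most high cells of plate 2 held no read. The highest values in high cells of plate 2 were 1.04 CPM for Itln1, 14.5 CPM for Tacr1 and 38.3 CPM for Agr2. They were 65.7 CPM for Oit1, 92.8 CPM for St8sia6, 147.2 CPM for Adh7 and 284.6 CPM for Neurl1b.

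A few genes were strong in a handful of high cells. Gp2, a glycoprotein that binds bacteria, had 6195 reads in 6 of the 17 high cells and 0 reads in low cells. Against a floor of 3 reads over all low cells, it was at least 6044-fold higher in high cells. Clca1, a secreted protein of goblet cells, had 4227 reads in 4 high cells and 0 in low cells, at least 4124-fold higher. Both were at 0 in every high cell of plate 2. Msln, a surface glycoprotein, had reads in 5 high and 2 low cells, with pooled levels of 122.3 CPM in high cells and 0.594 CPM in low cells. Ern2, an endoplasmic reticulum stress sensor of mucous cells, and Kcne3, a potassium channel subunit, each had reads in 4 high cells and in 1 and 2 low cells. These pooled values describe few cells.

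The goblet cell list gave 10 of 15 measured members 2-fold or more higher in high cells and 1 lower, against 17.4% higher and 19.6% lower among all genes, with a median log2 ratio of 2.24. The stricter count held 4 of 15 as higher, against 2.76% of all genes, and these were Agr2, Muc4, Muc5b and Tff2. This list shares members with that of large-airway cells. Spdef, a transcription factor of goblet cells, was at 24.8 CPM in high cells and 12.9 CPM in low cells, within 2-fold. Agr3, a relative of Agr2, was the lower one, at 0.109 CPM in high cells and 5.37 CPM in low cells. A list of 16 defence genes was mixed, with 4 of 14 measured members higher and 3 lower, against 17.4% and 19.6% of all genes, and a median of 0.22. Its medians on plates 2, 3 and 4 were 0.32, 0.30 and 0.41. The abundant Wfdc2, a secreted protease inhibitor, stood at 2294 CPM in high cells and 1503 CPM in low cells. Pigr, which carries immunoglobulin A across the epithelium, stood at 924 CPM in high cells and 483 CPM in low cells. Both were within 2-fold.

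**Figure D3:**
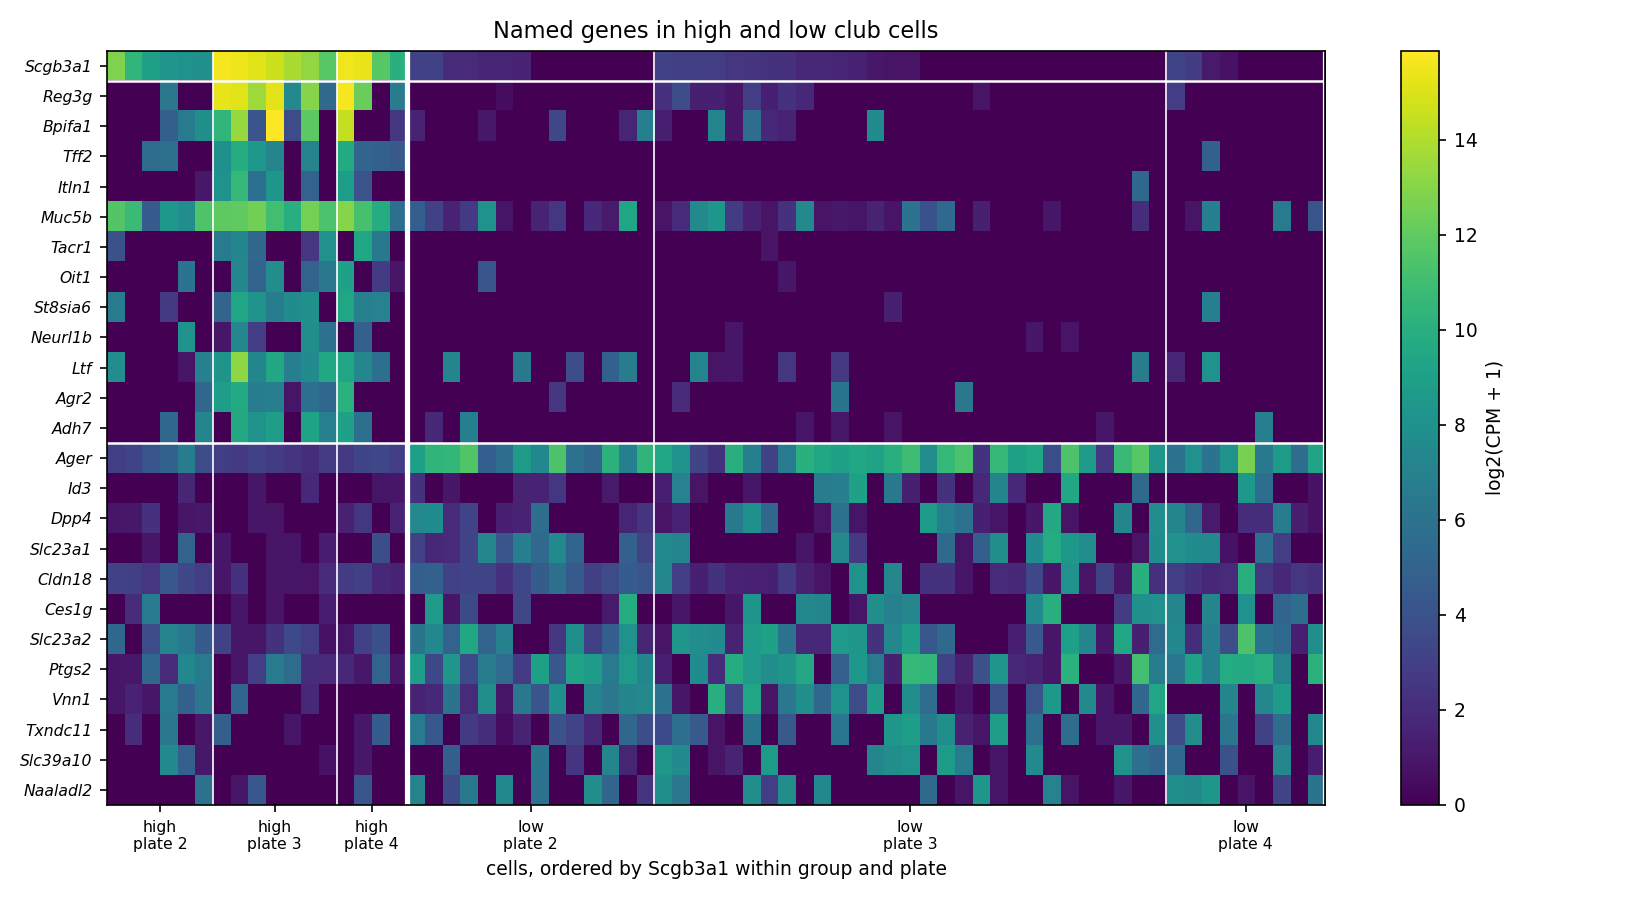
Log2(CPM + 1) of Scgb3a1 and of the 12 genes with the largest positive and the 12 with the largest negative ratios (rows) in each of the 17 high and 52 low cells (columns), by plate and ordered by Scgb3a1 within it. Muc5b was bright across high cells, and other genes of the upper block were bright in a part of the high cells. The lower block was mostly dark in high cells of plates 3 and 4. It was patchy in high cells of plate 2 and in low cells.

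Of 14 measured genes of general club cell identity, 12 were within 2-fold, against 63% of all genes, 1 was higher and 1 was lower in high cells. The cytochrome P450 Cyp2f2, typical of club cells, was at 30984 CPM in high cells and 32420 CPM in low cells. Aldh1a1, which oxidises retinal, stood at 4811 CPM in high cells and 4874 CPM in low cells. The club cell marker Cbr2 stood apart though within 2-fold, at 21526 CPM in high cells and 37303 CPM in low cells. Over all 94 club cells its rho with Scgb3a1 was -0.36, rank 2253 of 2264, and it was negative on each plate. Gsto1, a glutathione transferase, was the higher one, with 2627 CPM in high cells against 716 CPM in low cells, a log2 ratio of 1.87. Sec14l3, a lipid-binding protein found in secretory and ciliated airway cells, was the lower one, with 1125 CPM in high cells and 3056 CPM in low cells.

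High cells did not lack Scgb3a2, the secretoglobin usually tied to the bronchioles. It ranged from 14034 to 117269 CPM with a median of 35624 in high cells, and from 19.3 to 49388 CPM with a median of 17283 in low cells. Of the 17 high cells, 16 lay above the median of low cells and 6 lay above every low cell. The pooled level was 45670 CPM in high cells and 17790 CPM in low cells, a log2 ratio of 1.36, and 1.0, 1.54 and 1.41 on plates 2, 3 and 4. Of the other genes in the list of bronchiolar club cells, Chad, a cartilage-type leucine-rich repeat protein, was also higher (log2 ratio 1.39). Cldn18 and Gata6 were lower by the stricter count, which held 8.85% of all genes as lower. Of the 12 members, 7 were within 2-fold, against 63% of all genes. Upk3a, a uroplakin that marks a club cell subset near neuroendocrine bodies in mice, had 0 reads in high cells and 23.8 CPM in low cells, where 5 of 52 had a read. Against a floor of 3 reads over all high cells, it was at least 146.1-fold lower in high cells. That bound counts reads, not cells. With so few low cells holding Upk3a, its absence from 17 high cells sets no such bound per cell.

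Of 27 measured enzymes of foreign-compound metabolism, 4 were 2-fold or more higher and 5 lower in high cells, and the median was -0.36. These shares are near the 17.4% and 19.6% of all genes. The higher ones were Adh7, Gsto1, the sulfotransferase Sult1d1 (306.3 CPM in high cells and 27.98 CPM in low cells) and the cytochrome P450 Cyp2a5 (132.4 CPM in high cells and 23.5 CPM in low cells). All 4 also met the stricter count, which held 2.76% of all genes as higher. Among the lower ones only the carboxylesterase Ces1f met it, with 90.3 CPM in high cells and 206.2 CPM in low cells.

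Ager (chromosome 17, 34597862 to 34600936, plus strand) had the largest ratio among the genes named as lower. It ranged from 3.15 to 100.5 CPM with a median of 6.77 in high cells, and from 3.97 to 6153 CPM with a median of 451.9 in low cells. All 17 high cells lay below the median of low cells, and 1 of 17 high cells reached 100 CPM, against 37 of 52 low cells. Low cells reached down to the level of high cells, so the groups overlapped at the low end. The pooled level was 14.3 CPM in high cells and 840 CPM in low cells, a log2 ratio of -5.78, and -4.31, -7.05 and -6.81 on plates 2, 3 and 4. Of the other defining AT1 markers, Hopx stood at 1.58 CPM in high cells and 4.12 CPM in low cells, and Pdpn had reads in 1 high and 3 low cells. Over the AT1 list, 5 of 9 measured members were lower in high cells and 0 higher, against 19.6% and 17.4% of all genes.

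The other genes named as lower were patchy among low cells. Id3, an inhibitor of helix-loop-helix factors, was at 0.489 CPM in high cells and 50.97 CPM in low cells, where 24 of 52 had a read, and its plate 2 ratio was -0.19. Dpp4, a surface peptidase, was at 1.03 CPM in high cells and 54.1 CPM in low cells. Both vitamin C transporters were lower. Slc23a1 was at 3.37 CPM in high cells and 74.1 CPM in low cells, and Slc23a2 was at 15.98 CPM in high cells and 195.1 CPM in low cells. Ptgs2, the inducible cyclooxygenase, was at 31.7 CPM in high cells and 373.7 CPM in low cells, and 16 of 17 high cells lay at or below the median of low cells. The tight junction gene Cldn18 (log2 ratio -3.84), the carboxylesterase Ces1g (-3.63), the pantetheinase Vnn1 (-3.39), Txndc11 (-3.37), the zinc transporter Slc39a10 (-3.31) and Naaladl2 (-3.27) completed the 12. On plate 2 the ratio of Cldn18 was -0.63 and that of Slc39a10 -0.15.

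Of 19 measured lung transcription factors, 2 were 2-fold or more higher in high cells, 4 were lower and the median was 0.06, against 17.4% and 19.6% of all genes. All 4 lower ones met the stricter count, against 8.85% of all genes, and none of the higher ones did. Nkx2-1, the master regulator of lung epithelium, ranged from 0 to 164.8 CPM with a median of 44.9 in high cells, and from 0 to 672 CPM with a median of 101.4 in low cells. Of the 17 high cells, 15 lay at or below the median of low cells, and the log2 ratio was -1.29. Gata6 was at 3.42 CPM in high cells and 42.02 CPM in low cells (log2 ratio -3.28). Grhl2, an epithelial factor, had a ratio of -1.29 and Cebpa of -1.14. Foxa1 stood at 165.98 CPM in high cells and 98.3 CPM in low cells, Foxa2 at 86.1 CPM in high cells and 56.4 CPM in low cells, and Sox2, a factor of the conducting airways, at 39.6 CPM in high cells and 39.9 CPM in low cells, all within 2-fold.

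Of 6 measured Notch pathway genes, 0 were higher and 2 were lower in high cells, both by the stricter count, against 19.6% of all genes as lower and 8.85% by the stricter count. Hes1, a target gene of Notch signalling, was at 63.3 CPM in high cells and 262.8 CPM in low cells (log2 ratio -2.04), and -3.55, -1.97 and -1.33 on plates 2, 3 and 4. The ligand Jag1 was at 19.5 CPM in high cells and 63.6 CPM in low cells (-1.66). The receptor Notch2 stood at 56.3 CPM in high cells and 63.5 CPM in low cells. Of 16 immediate early and heat shock genes, 13 were within 2-fold, against 63% of all genes.

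For the next lists the shares of all genes were 63% within 2-fold, 17.4% higher and 19.6% lower. Of 17 genes of protein folding and export, 15 were within 2-fold, with 0 higher and 2 lower. In the ion and water transport list 13 of 16 were within 2-fold, and the water channel Aqp4 was higher on every plate, with 220.9 CPM in high cells and 39.7 CPM in low cells. Among 14 genes of the NF-kB and acute phase list, 2 were higher and 3 lower. Both higher ones met the stricter count, which held 2.76% of all genes as higher. Of these 2, Cxcl5, a neutrophil-attracting chemokine, was at 288.4 CPM in high cells and 17.9 CPM in low cells. Cd14, a co-receptor for bacterial lipopolysaccharide, was at 427.1 CPM in high cells and 177.97 CPM in low cells. Of 14 measured interferon genes 3 were higher and 3 lower, of 9 antigen presentation genes of class I 2 were higher and 1 lower, and of 3 of class II 1 was higher and 1 lower. Of 13 claudin and keratin genes 1 was higher and 1 lower, and of 15 oxidative stress genes 1 was higher and 3 lower.

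**Figure D4:**
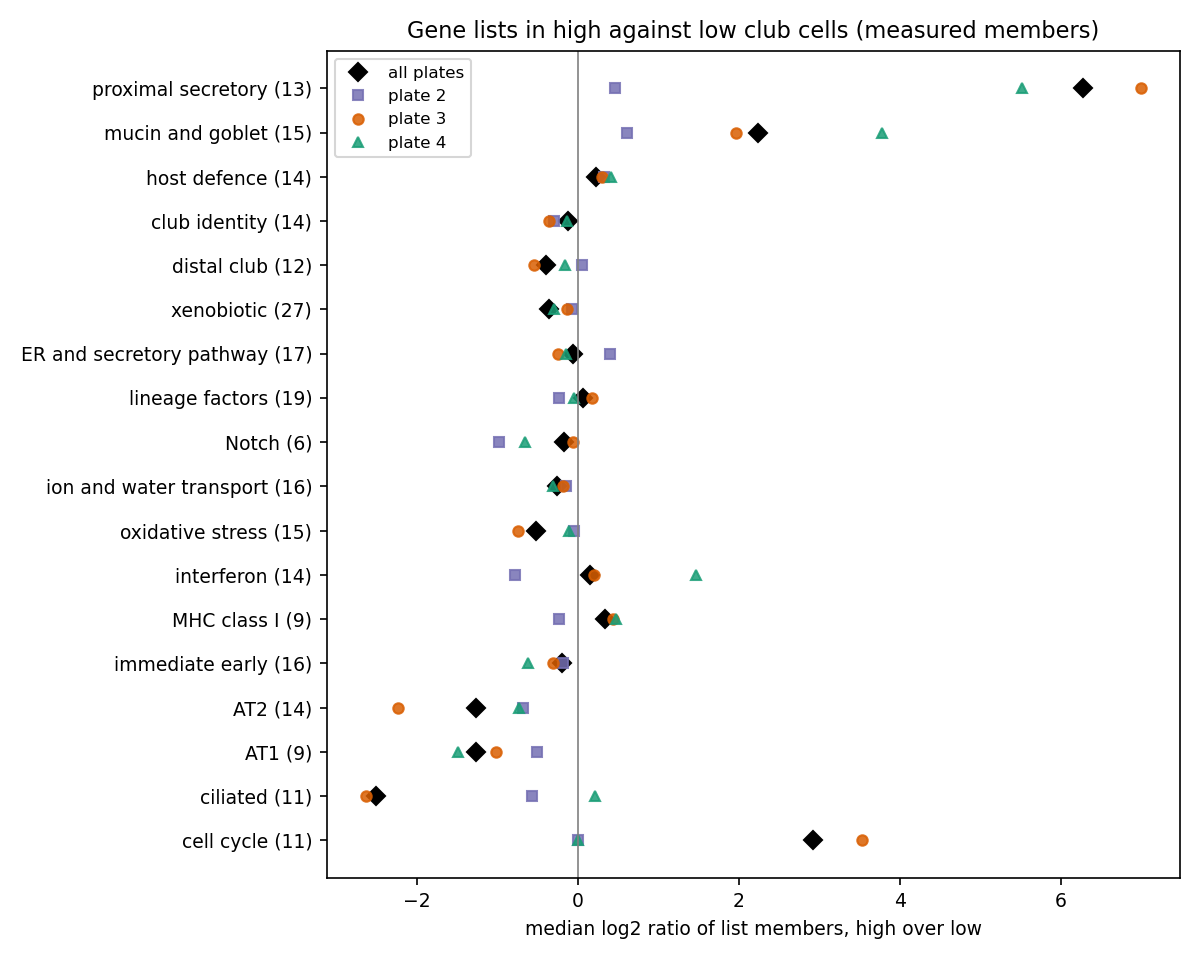
Median log2 ratio of high over low cells for the measured members of 18 gene lists, with their number in brackets, over all plates (black) and on plates 2, 3 and 4. The proximal secretory list stood at 6.27 in all and 0.46 on plate 2, the club identity list near 0 on each plate, and the ciliated and cell cycle lists differed between plates.

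Markers of other cell types also differed between the groups. Of 14 measured AT2 markers, 8 were 2-fold or more lower and 0 higher in high cells, against 19.6% and 17.4% of all genes, with a median of -1.26. The list of 16 summed to 1911 to 56082 CPM in high cells (median 20147) and to 7881 to 140479 CPM in low cells (median 18815). Sftpc, the surfactant protein that defines AT2 cells, ranged from 280 to 2841 CPM in high cells and from 220 to 36303 CPM in low cells, with a median of 719 CPM in high cells and 831 CPM in low cells. The medians were close, and the upper ends differed. Of 11 measured ciliated markers, 10 were lower, against 19.6% of all genes, with a median of -2.51 that was as near 0 as -0.20 when 1 cell was left out. The ciliated list summed to 27.96 to 6422 CPM in high cells and 50.7 to 12215 CPM in low cells, with a median of 745 CPM in high cells and 2743 CPM in low cells, and Sec14l3 made up most of it. The defining ciliated gene Foxj1 had reads in 1 of 17 high cells and 10 of 52 low cells. Of the leukocyte list only Lcp1 was measured, at 123.6 CPM in high cells and 123.5 CPM in low cells, and Ptprc had 1 read in high cells and 0 in low cells. The macrophage list had 1 measured gene and the endothelial list 2, all lower in high cells, and no erythroid gene was measured. The part of these cells or reads in the ratios was not tested.

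All 11 measured cell cycle genes were higher in high cells, against 17.4% of all genes, with a median log2 ratio of 2.92, but this rested on single cells. Mki67 had reads in 1 of 17 high cells, at 1382 CPM on plate 3, and in 6 of 52 low cells, at up to 47.1 CPM. When any 1 cell was left out, the median of the list was as low as -0.05. The 4 measured mesenchymal genes were also higher, against 17.4% of all genes, but 0 of them met the stricter count. Their median log2 ratio was 0 on plate 2 and fell below 0 when a certain 1 cell was left out. Col3a1 had reads in 1 high cell and in 0 low cells.

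How far a difference seen on one plate recurred on the others was counted over all genes. Of 621 genes 4-fold or more higher in high cells of plate 3, with 20 CPM or more there, 34.8% were also 2-fold or more higher in the pool of plates 2 and 4, against 16% of all 6549 genes with 20 CPM on plate 3. Of 681 genes 4-fold or more lower, 37.7% were also 2-fold or more lower, against 21.2% of all genes. The direction alone was kept by 52.7% of the higher and 64.3% of the lower genes, against 45.98% and 53.2% of all. The remaining genes differed by less than 2-fold there or in the other direction. The 24 named genes were chosen for the same direction on each plate, so their place in this count is no result.

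**Figure D5:**
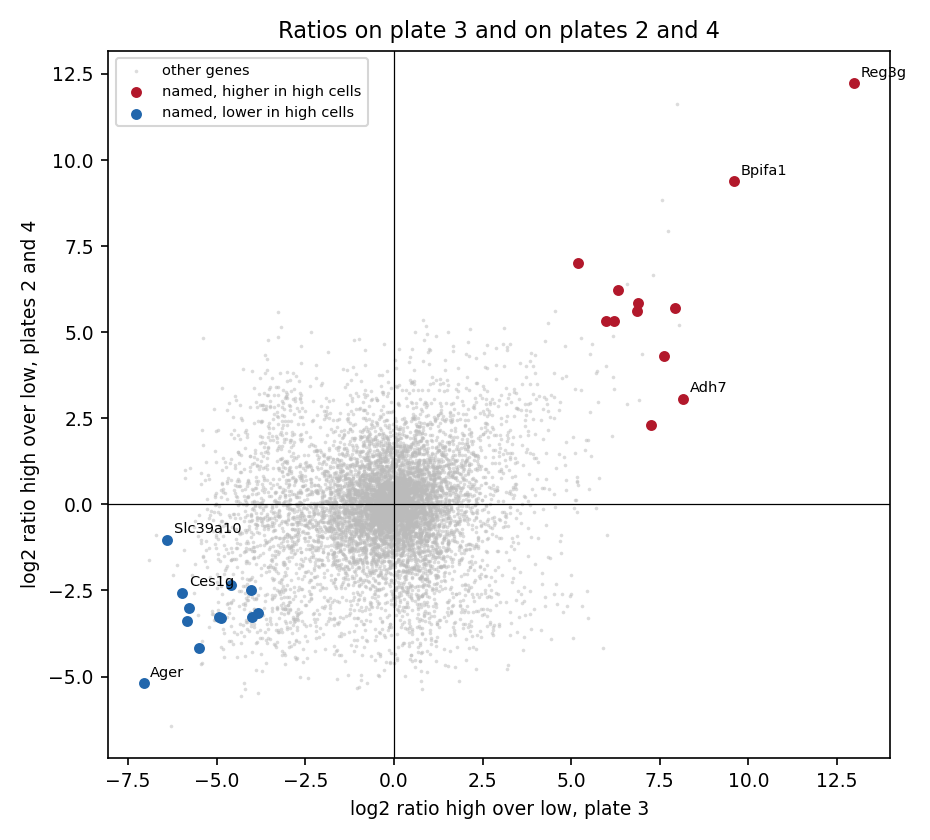
Log2 ratio of high over low cells on plate 3 (horizontal) and in the pool of plates 2 and 4 (vertical), for genes with 5 CPM or more in both, with the 12 named higher genes in red and the 12 named lower genes in blue. Most genes lay around the centre, and Reg3g and Bpifa1 lay farthest to the upper right among the named genes.

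Cells outside the club group showed where high levels of Scgb3a1 were found. In BASCs-Tracer (alleles Sftpc-DreER and Scgba1a1-CreER with the reporter R26-RSR-LSL-tdtomato), a line that labels a cell only after both an Scgb1a1-driven and an Sftpc-driven recombinase have acted, 0 of 13 club cells reached 100 CPM, and the highest had 40.5 CPM. A count of 0 of 13 allows a share of up to 23.1% by the limit of 3 counts, and the exact interval reaches 24.7%. Those 13 cells had at most 5.15 CPM of Reg3g and 1.29 CPM of Bpifb1. Of them, 2 had Muc5b at 279.1 and 945 CPM with 0 reads of Scgb3a1. Plate 1, which held no cell of Scgb1a1-TD, gave 6 of the 13 cells, among them both of these. Line and plate can therefore not be fully told apart here. Among cells of Scgb1a1-TD, 0 of 37 BASCs and 1 of 24 ciliated cells reached 100 CPM. Among AT2 cells of Sftpc-TD none did, which allows a share of up to 2.03% by the limit of 3 counts, and the exact interval reaches 2.46%.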

How the data were processed

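The values are whole read counts for each gene in each cell, which the authors deposited unscaled and without molecular identifiers. HISAT2, HTSeq and the build GRCm38 are named in the processing of the deposited counts, per the submitters' processing notes, while versions and the strand setting are not stated there. Per the labels' protocols, cDNA was made with SuperScript II, amplified with KAPA HiFi and made into libraries with Nextera XT. The header lacks a name over the gene identifiers, so its names were shifted by 1 place. Plate and well came from the sample titles. Names and GRCm38 positions came from GENCODE M21 (53274 of 53379 identifiers), and 159 identifiers that share a symbol were not named. High cells (100 CPM or more of Scgb3a1) and low cells (under 10 CPM) were taken from Scgb1a1-TD club cells with 100000 reads, and 3 of 97 cells had fewer. Reads were summed over cells, so deeper cells weigh more, and each ratio is the log2 of high over low CPM after adding 1 CPM to both. Exact Poisson and Clopper-Pearson intervals (95%) cover counting error only. No doublet caller and no test was run. The members and the 31 gene lists were chosen with earlier results of these data known. Named genes were the 12 with the largest ratios in each direction among those with 50 CPM, a read in 30% of cells, the same direction on each plate and a 2-fold difference kept without any 1 cell, with mitochondrial, ribosomal, Gm-number and Rik genes left out. To these came list members of highest level and the 10 genes most like Scgb3a1; further list members, and the analysis by plate row and column, were chosen after their values were seen. Alternatives were other summaries, scalings, limits, depths, plates and cells left out. The steps were tested on simulated data with Python 3.11.15, NumPy 2.4.6, pandas 2.3.3 and SciPy 1.17.1.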

Additional observations from a re-analysis of the deposited data

Results flagged for a closer look

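Among the cells compared outside the club cells of Scgb1a1-TD, 2 had 100 CPM or more of Scgb3a1, above the highest value of 42.3 CPM in AT2 cells of Sftpc-TD. A ciliated cell of Scgb1a1-TD on plate 3 held 735 CPM, against 80.9 CPM in the next of the 23 other ciliated cells. It had 500 CPM of Foxj1, 27.8 CPM of Reg3g and 3.97 CPM of Muc5b, and it lay in row D, with a club cell at 34623 CPM. The other cells of that row had at most 20.8 CPM. A BASC of BASCs-Tracer on plate 2 held 111.2 CPM of Scgb3a1, with 185.3 CPM of Reg3g, 98.8 CPM of Bpifa1 and 92.6 CPM of Bpifb1, at a depth of 161940 reads. It lay in column 1, where 2 of the club cells at 10000 CPM or more lie on plate 3. The part of other wells in these levels was not tested.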

How the results depend on the processing

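No paired analysis was possible because the results come from no test, and replicate numbers only name cells. The fold behind a log2 ratio, or a percentage of genes, counted as moved when it changed by more than 1.5 times, and a share of cells when it left its exact interval. Of the values of the main results under other settings, 76.4% stayed and 42 (23.6%) moved. Of those of the other results, 984 (75.1%) stayed, 23.97% moved and 12 turned round. The Muc5b log2 ratio (6.29) was 10.15 from medians over cells, 6.99 with low under 1 CPM, 5.39 with low under 100 CPM, 5.61 without plate 3, and 4.45 and 7.02 on plates 2 and 4 alone. That of Bpifa1 (9.27) was 4.201 from medians, 8.37 with 10 CPM added, 11.12 with low under 1 CPM, 3.16 and 12.51 on plates 2 and 4, 4.97 without cells with 50 CPM of leukocyte markers, 6.86 without cells with 1000 CPM of ciliated markers, and 7.95 to 9.90 without 1 cell. That of Reg3g (12.60) was 6.72 from medians, 10.06 with 10 CPM added, 13.45 with low under 1 CPM, 11.09 with low under 100 CPM, 2.42 and 13.23 on plates 2 and 4, and 11.85 without cells with leukocyte markers. The proximal secretory median (6.27) was 4.11 with 10 CPM added, 5.13 with low under 100 CPM, 4.99 without plate 3, 4.54 without cells with leukocyte markers, 5.56 to 6.38 without 1 cell, and 1.12, 6.92 and 5.52 on plates 2, 3 and 4 with measured genes chosen anew there.

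Genes 2-fold or more higher (1845, 17.4% of those measured) became 746 (7.03%) with 10 CPM added and 3232 (31.6%) without cells with ciliated markers, which left 13 high and 8 low cells. They were 39.1% of the 3415 genes measured from medians over cells and 26.2% on plate 2. The ciliated limit applied to the sum of the list, most of which was Sec14l3, also counted as a club identity gene. It therefore does not by itself mark ciliated cells. Genes 2-fold or more lower (2086, 19.6%) became 12.2% from medians, 812 (7.65%) with 10 CPM added, 3673 with no filter and thus more genes measured, 3127 (32.6%), 3142 (29.2%) and 3323 (33.7%) on plates 2, 3 and 4 alone, and 4283 (41.2%) without cells with leukocyte markers, which left 5 high and 25 low cells. Of the leukocyte list only Lcp1 was measured, at nearly the same pooled level in high and low cells. The leukocyte limit therefore does not by itself mark leukocytes. High cells were 28.6% on plate 2, and low cells 66.7% there and 44.7% with each cell thinned to 100000 reads. Bpifb1 turned to -2.21 on plate 2. The tuft cell and ionocyte median (1.24) turned to -0.40 with totals without mitochondrial and top genes, -0.38 with no filter, -2.59 on plate 2, -1.70 without plate 3, -1.47 without cells with ciliated markers, and -0.61 without the cells with 1000 CPM of cell-cycle genes, a setting chosen after seeing the data, and from there to 1.88 without 1 cell. The macrophage median (-3.21) turned to 0.050 with no filter. The mesenchymal median (3.38) turned to -1.07 without plate 3, -0.90 on plate 4 and ran from -1.93 to 3.82 without 1 cell. The cause of these moves was not tested. Of the cells split by sex-linked reads, only those with Y-linked reads were numerous enough to compare (17 high and 48 low cells).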
